A study of Mus musculus with 5 samples.

Results

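The SNAIL, ZEB and TWIST transcription factors are encoded by 7 mouse genes, Snai1, Snai2, Snai3, Zeb1, Zeb2, Twist1 and Twist2, and were chosen by gene symbol with earlier results of the same libraries known. Of these, 6 were found among the 29495 genes of the count tables, and Snai3 was not analysed here. After a filter on low counts 5 were tested, and Twist2 did not pass it. Because the choice was made with the comparison in view, the members' values below are a description, and no p-value is printed for them. Which members a fit called is given further on, also as a description only.

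The libraries hold polyadenylated RNA of mouse glioma cells whose genotype is given as p53-/-;NF1-/-;tdTomato+/-. The tumor-bearing mice were of mixed CD-1 and C57BL/6 descent. All cells were grown with olfactory bulb (OB) neurons of newborn C57BL/6 pups and sorted away from them on the tdTomato label, and both groups carry the same deletions and reporter. The IGF-1 group (replicates 3, 4 and 5) received 20 ng/mL of insulin-like growth factor 1 overnight, and the co-culture group (replicates 1 and 2) did not. Which promoter or Cre drove the deletions, how many tumors or cultures gave the cells, and the age of the tumor-bearing mice are not given in the labels. The neurons had been plated in medium with insulin and serum. The labels do not tie replicates to different cultures or mice. P-values reflect variation among these 5 libraries only, and it may be technical.

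SNAIL proteins are zinc finger repressors that bind the E-box CACCTG and recruit corepressors, ZEB proteins bind the same letters through a zinc finger cluster at each end, and TWIST proteins are basic helix-loop-helix factors that bind E-boxes as dimers. They are best known for silencing epithelial genes such as that of E-cadherin in epithelial-mesenchymal transition and for their part in the neural crest. ZEB2 is also needed for myelination by mouse oligodendrocytes. Glioma cells are glial and not epithelial.

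Total counts ran from 18359421 to 20144181 in the IGF-1 libraries and were 17365697 and 16944315 in the co-culture libraries. IGF-1 replicate 5 stood apart on the first principal component (33.2, against -19.2 to 2.0 for the other 4 libraries), so calls that change without it are given beside the lists. Markers of the labelled glioma (Olig2, Sox2, Pdgfra, Nes, Cspg4 and Sox10) were present in every library and summed to 2910, 2950 and 3360 CPM (counts scaled for library size with TMM factors) with IGF-1 and 2810 and 2680 CPM in co-culture.

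The sequences upstream of a few of these genes show where the E-box lies. Each stretch holds the 250 bases before the RefSeq start of transcription (build GRCm38.p6, whereas the counts were made on GRCm39), 5′ to 3′ on the gene's strand, with CACCTG or its reverse complement CAGGTG in capitals. Snai1 (chr2:167537945-167538194, plus strand) and Twist1 (chr12:33957421-33957670, plus strand) are members that were higher in every IGF-1 library. Crb3 (chr17:57061951-57062200, plus strand), an epithelial polarity gene, had the most E-boxes before 1 start among the epithelial genes searched, and Vdr (chr15:97908297-97908546, minus strand) encodes the vitamin D receptor, known in human cells to be repressed by SNAI1 and SNAI2.
Snai1: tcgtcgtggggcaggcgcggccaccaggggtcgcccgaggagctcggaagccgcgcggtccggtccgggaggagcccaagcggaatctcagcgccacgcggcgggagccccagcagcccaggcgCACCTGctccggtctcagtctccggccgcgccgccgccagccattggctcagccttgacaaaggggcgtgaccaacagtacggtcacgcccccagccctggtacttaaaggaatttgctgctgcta
Twist1: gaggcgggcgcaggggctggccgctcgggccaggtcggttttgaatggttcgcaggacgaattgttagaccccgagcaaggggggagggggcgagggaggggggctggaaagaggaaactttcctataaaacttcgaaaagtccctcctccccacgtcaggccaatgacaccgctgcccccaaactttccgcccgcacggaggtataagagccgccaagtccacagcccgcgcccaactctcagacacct
Crb3: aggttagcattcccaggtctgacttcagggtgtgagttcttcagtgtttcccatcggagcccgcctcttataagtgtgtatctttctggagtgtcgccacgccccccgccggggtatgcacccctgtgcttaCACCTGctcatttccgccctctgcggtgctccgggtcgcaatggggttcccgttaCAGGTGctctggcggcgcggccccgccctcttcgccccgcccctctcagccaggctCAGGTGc
Vdr: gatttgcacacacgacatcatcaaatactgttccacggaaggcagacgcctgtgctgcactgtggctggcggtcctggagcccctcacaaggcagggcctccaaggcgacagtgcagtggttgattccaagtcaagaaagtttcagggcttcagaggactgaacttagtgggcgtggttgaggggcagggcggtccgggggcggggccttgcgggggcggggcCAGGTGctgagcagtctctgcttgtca
The Snai1 stretch held CACCTG beginning 126 bases before the start, Crb3 held E-boxes beginning 118, 63 and 7 bases before it, Vdr held 1 beginning 27 bases before it, and Twist1 held 0. Of all 32851 starts searched on both strands, 17.2% had at least 1 E-box in the same window. A sequence was found for 4 members (Snai1, Zeb2, Twist1 and Twist2), and 1 of them, Snai1, had an E-box. Among 21 epithelial genes with a sequence, 12 had one before at least 1 start, which held for 19.4% of 27025 genes.

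Snai2, which encodes SLUG and is a SNAIL repressor of neural crest and mesenchymal cells, was the member that differed most clearly. It was read at 3.30, 3.65 and 3.52 CPM in IGF-1 replicates 3, 4 and 5, against 7.10 and 8.26 CPM in co-culture replicates 1 and 2. The 3 IGF-1 libraries lay close together and all below both co-culture libraries. The means were 3.49 ± 0.176 CPM with IGF-1 (SD, n = 3) and 7.68 ± 0.823 CPM in co-culture (SD, n = 2). The fitted log2 fold change was -1.13 (SE 0.17), or 0.456 times the co-culture level. In bulk libraries, fewer cells that express the gene and less RNA in each cell cannot be told apart.

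Snai1, which encodes SNAIL itself, had few reads and lay the other way. There were 19, 14 and 15 reads in IGF-1 replicates 3, 4 and 5, against 6 and 8 in co-culture replicates 1 and 2. In CPM this was 1.05, 0.741 and 0.734 with IGF-1 and 0.346 and 0.472 in co-culture, and the groups did not overlap. All 5 libraries were above the limit of 3 reads that a count of 0 allows, which equals 0.147 to 0.177 CPM. The log2 fold change was 1.02 with an SE of 0.47. Pooled over libraries and scaled to their depth, the 48 reads with IGF-1 came to 0.835 CPM (exact 95% Poisson interval 0.616 to 1.11) and the 14 reads in co-culture to 0.408 CPM (0.223 to 0.685). These intervals overlap, which does not by itself show that the levels were alike, and they cover counting error only.

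The opposite positions of the SNAIL genes show in their ratio, which needs no scaling between libraries. There were 3.16, 4.93 and 4.80 Snai2 reads for each Snai1 read in IGF-1 replicates 3, 4 and 5, against 20.5 and 17.5 in co-culture replicates 1 and 2. Every IGF-1 ratio was below both co-culture ratios, and Snai2 still had more reads than Snai1 in every library. Summed over both genes, SNAIL transcripts came to 4.35, 4.39 and 4.26 CPM with IGF-1 and 7.44 and 8.73 CPM in co-culture. The sum was thus lower in the 3 IGF-1 libraries, as Snai2 makes up most of it.

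**Figure D1:**
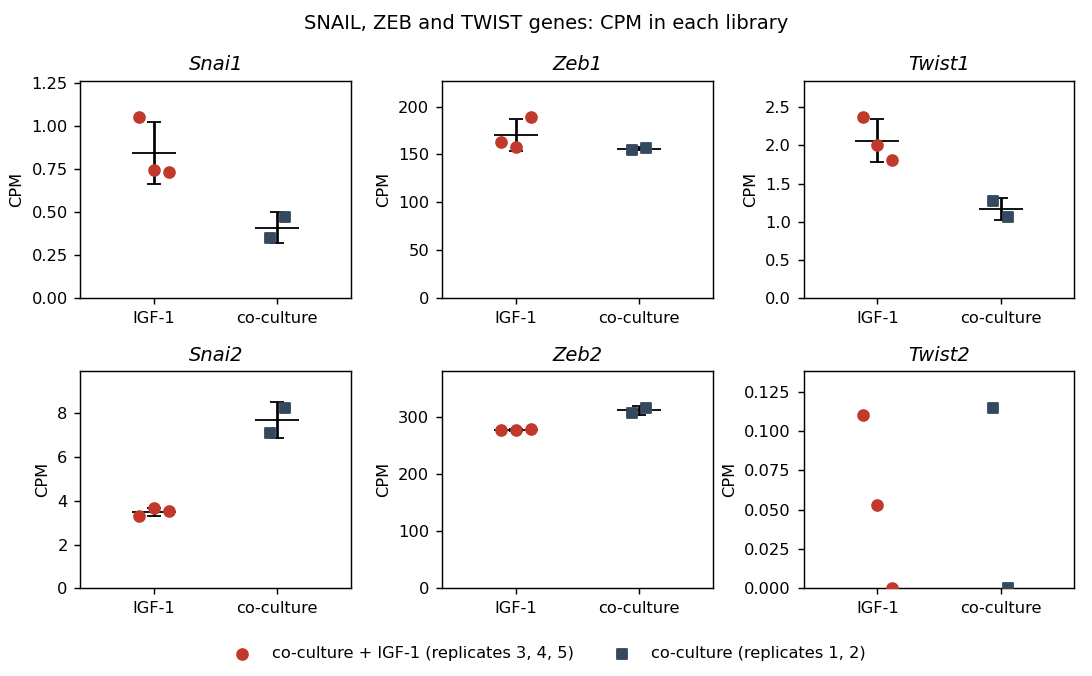
CPM of 6 SNAIL, ZEB and TWIST genes in each library (circles, IGF-1 replicates 3, 4 and 5 from left to right; squares, co-culture replicates 1 and 2; bar and whiskers, mean and SD; none for Twist2, which had 0 to 2 reads). Snai2 was lower in all 3 IGF-1 libraries (3.30 to 3.65 CPM, against 7.10 and 8.26), while Snai1 and Twist1 were higher in all 3.

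Twist1, a helix-loop-helix factor of cranial mesenchyme and neural crest, was also low and higher with IGF-1. It was at 2.37, 2.01 and 1.81 CPM in IGF-1 replicates 3, 4 and 5 (43, 38 and 37 reads) and at 1.27 and 1.06 CPM in co-culture replicates 1 and 2 (22 and 18 reads). The groups did not overlap, and the log2 fold change was 0.82 (SE 0.30). Snai2 reads outnumbered Twist1 reads 1.4, 1.82 and 1.95 times in the IGF-1 libraries, against 5.59 and 7.78 times in the co-culture libraries. Twist2, the other TWIST gene, had 2, 1 and 0 reads with IGF-1 and 2 and 0 in co-culture. It was at or under the limit of 3 reads in all 5 libraries, so no fold is given.

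**Figure D2:**
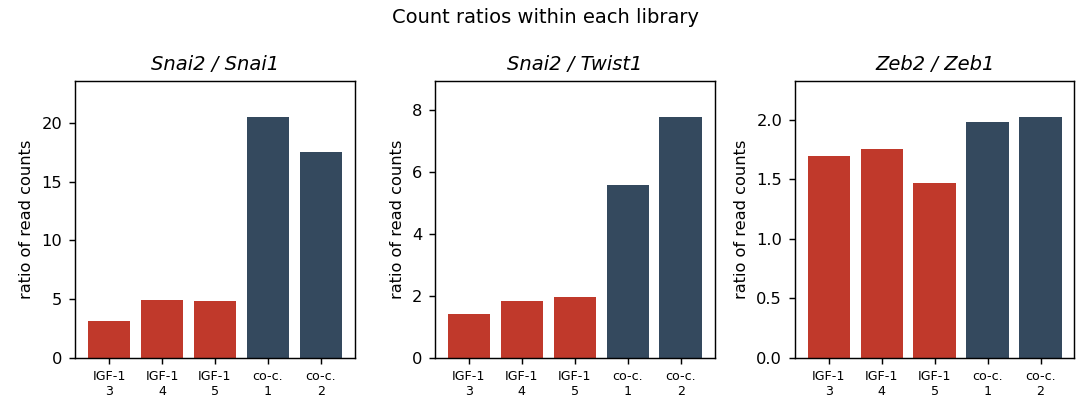
Ratio of read counts between members within each library (IGF-1 replicates 3, 4 and 5, then co-culture replicates 1 and 2, written co-c.). Snai2 over Snai1 was 3.16 to 4.93 with IGF-1 and 17.5 to 20.5 in co-culture, and Zeb2 over Zeb1 was 1.47 to 1.75 with IGF-1 and 1.98 to 2.02 in co-culture.

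The ZEB genes had far more reads and differed by less than 0.2 on the log2 scale. Zeb2, whose protein is also called SIP1, was at 276, 276 and 279 CPM in IGF-1 replicates 3, 4 and 5 and at 306 and 316 CPM in co-culture replicates 1 and 2. The IGF-1 libraries were all slightly lower, at a log2 fold change of -0.17 (SE 0.06). Zeb1, the other ZEB repressor, was at 163, 158 and 189 CPM with IGF-1 and at 155 and 157 CPM in co-culture, a log2 fold change of 0.13 (SE 0.08). Only replicate 5 stood clearly above co-culture there, and without it the value was 0.04. The number of Zeb2 reads per Zeb1 read was 1.69, 1.75 and 1.47 with IGF-1, against 1.98 and 2.02 in co-culture, so all 3 IGF-1 ratios were the lower ones. Zeb2os, an antisense gene at the Zeb2 locus, had 17 to 25 reads with IGF-1 and 19 in each co-culture library. Whether strand was used in counting is not given, and any effect of this overlap on the Zeb2 count was not tested.

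In the edgeR quasi-likelihood fit over 15919 genes with Benjamini-Hochberg adjustment, 0 of 5 tested members were called higher and 1, Snai2, was called lower, where 0.685% of all genes tested were called higher, 0.339% lower and 1.02% in either direction. At an unadjusted p under 0.05, 1 was higher and 2 were lower, where 7.1% of all genes tested were higher and 5.57% lower. DESeq2, which gave Snai1 no adjusted p, called 0 of the other 4 higher and 1 lower (1.39% and 0.581% of genes). All 5 tested members had groups that did not overlap, which held for 16.2% of genes on the higher side and 16.9% on the lower. Since the members were chosen with this comparison known, nothing is read from these counts.

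Leaving out 1 library decided which members were called. Without IGF-1 replicate 5, Snai2 and Zeb2 were both called lower and 0 members higher, beside 3.65% of genes lower, 5.49% higher and 9.14% in either direction. The log2 fold change of Zeb2 was then -0.17, as with all libraries. Without co-culture replicate 1 or 2, or IGF-1 replicate 3 or 4, 0 members were called, although Snai2 stayed between -1.24 and -1.02. In the same way Snai1 lay between 0.82 and 1.26 and Twist1 between 0.70 and 0.95 over the 5 fits that each left out 1 library.

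Per kilobase of exon, the only scale on which different genes can be set side by side, ZEB transcripts led. Zeb1 averaged 29.3 ± 2.92 CPM per kb with IGF-1 and 26.8 ± 0.197 in co-culture, and Zeb2 24.2 ± 0.161 with IGF-1 and 27.2 ± 0.574 in co-culture (SD, n = 3 and n = 2). In co-culture these neighbours differed by less than their spread, and in the IGF-1 libraries Zeb1 was above Zeb2 in each. Their order turned when the longest transcript was used as the length, which put Zeb2 first. The others followed in steps without overlap in co-culture: Snai2 at 1.73 ± 0.087 CPM per kb with IGF-1 and 3.80 ± 0.407 in co-culture, Twist1 at 1.27 ± 0.174 and 0.716 ± 0.09, and Snai1 at 0.519 ± 0.11 and 0.252 ± 0.0549. With IGF-1 the step between Snai2 (1.64 to 1.81) and Twist1 (1.11 to 1.45 CPM per kb) was narrower. Twist2 was lowest, at no more than 0.0364.

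The ZEB genes made up most of the members' transcripts. In shares of the summed CPM per kb, Zeb1 held 50.3%, 49.5% and 54.1% with IGF-1 and 46.0% and 45.3% in co-culture, and Zeb2 43.0%, 44.0% and 40.4% with IGF-1 and 46.1% and 46.3% in co-culture. Snai2 held 2.92%, 3.30% and 2.89% with IGF-1, against 6.05% and 6.86% in co-culture. Averaged over the 5 libraries and set among all tested genes with a length, the level per kb was at percentile 82.8 for Zeb1, 80.7 for Zeb2, 32.6 for Snai2, 20.2 for Twist1 and 9.2 for Snai1.

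**Figure D3:**
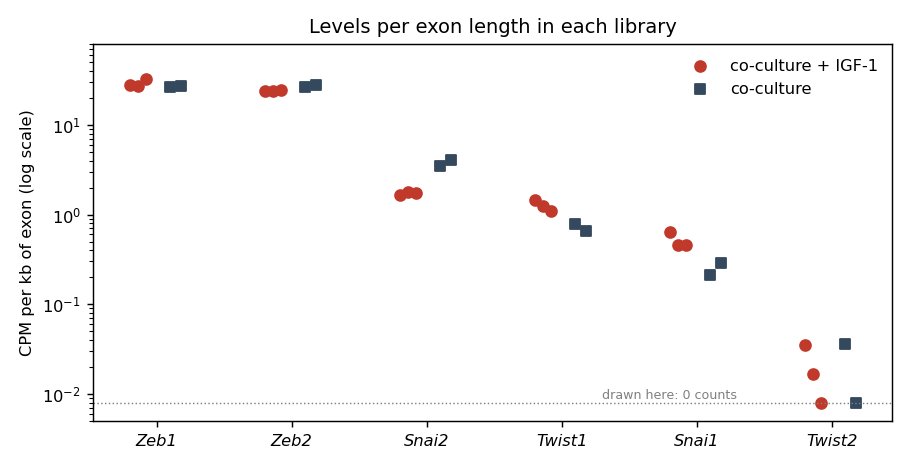
CPM per kilobase of exon (log axis) of 6 members in each library, IGF-1 libraries as circles left of the co-culture libraries as squares; a dotted line marks where libraries with 0 reads are drawn. Zeb1 and Zeb2 lie between 24.1 and 32.7, above all other members.

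The repressors act through corepressors, and none of these genes was called with all libraries. Of 17 corepressor and chromatin genes edgeR and DESeq2 called 0, with 2 higher and 0 lower unadjusted, and a median log2 change of 0.08 (-0.008 over all genes tested). Kdm1a, the histone demethylase LSD1 that SNAI1 recruits, was at 152, 159 and 166 CPM with IGF-1 and 156 and 141 CPM in co-culture (log2 0.10, adjusted p = 0.592 by edgeR). Ctbp1, the corepressor of ZEB proteins, was at -0.03 and the chromatin remodelling ATPase gene Smarca4 at 0.04. Without IGF-1 replicate 5, 1 was called higher, the corepressor gene Limd1 (0.27), which was also called without the filter on low counts. The shares to set beside this and each list below are those of all genes tested: 7.1% higher and 5.57% lower unadjusted. Without IGF-1 replicate 5, 5.49% of all genes tested were called higher and 3.65% lower.

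TWIST proteins pair with E proteins, whose genes were also expressed at high counts. Among 10 tested E protein, HAND, ID and SMAD genes edgeR and DESeq2 called 0, with 3 higher and 2 lower unadjusted (median 0.094). Tcf12 was at -0.10 and Tcf3 at 0.09. Tcf4 was at 220, 232 and 224 CPM with IGF-1 and 254 and 256 CPM in co-culture (log2 -0.18, SE 0.06, adjusted p = 0.248), groups that did not overlap. Without IGF-1 replicate 5, 1 gene of the list was called higher, Smad2 (0.22), and 2 lower, Tcf4 (-0.17) and Id3 (-0.21).

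Kinases and ubiquitin ligases that set the stability of SNAIL proteins were not called with all libraries. Of 16 genes edgeR and DESeq2 called 0, with 3 higher and 0 lower unadjusted (median 0.042). Gsk3b, whose kinase marks SNAI1 for destruction, was at -0.01, the kinase gene Csnk1a1 at 0.03 and Fbxw11, a ubiquitin ligase subunit gene, at 0.05. The ubiquitin ligase subunit gene Fbxo11 was called higher (0.17) without IGF-1 replicate 5. Messenger levels do not show kinase activity or protein stability.

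Epithelial genes that these factors repress were mostly near the limit of detection in both groups. Of 30 listed, 24 were in the tables and 13 passed the filter on low counts. EdgeR and DESeq2 called 0 of them, with 0 higher and 1 lower unadjusted and a median of 0.043. Cdh1, the E-cadherin gene, had 7, 3 and 5 reads with IGF-1 and 10 and 8 in co-culture and was not tested. The splicing factor gene Esrp1 had 0, 1 and 1 reads with IGF-1 and 1 and 4 in co-culture, again too few to test. Crb3, whose upstream E-boxes are printed above, was at 0.551, 0.529 and 0.685 CPM with IGF-1 and 0.577 and 0.177 CPM in co-culture, and overlapped between the groups. The abundant members were junction genes that other cells also express, Tjp1 (0.04) and Jup (-0.20, adjusted p = 0.448).

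Among 6 other genes known as repressed by SNAI1 or SNAI2, edgeR and DESeq2 called 0, with 1 higher and 2 lower unadjusted (median -0.003). Vdr was at 91.7, 92.3 and 103 CPM with IGF-1 and 113 and 109 CPM in co-culture (log2 -0.21, SE 0.07, adjusted p = 0.25). It lay lower in all 3 IGF-1 libraries and passed the test without replicate 5, at -0.27. Bbc3, the PUMA gene that SLUG represses in mouse blood progenitors, was named after its values were seen. It was at 11.2, 10.2 and 11.5 CPM with IGF-1 and 14.2 and 14.7 CPM in co-culture (adjusted p = 0.187), and passed without replicate 5 at -0.43. Bid, of the same list and also named after its values were seen, lay the other way. Its values were 15.6, 16.3 and 16.1 CPM with IGF-1 and 12.2 and 13.2 CPM in co-culture (log2 0.33, adjusted p = 0.241 by edgeR).

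Genes of the mesenchymal program did not pass with all libraries. Of 30 listed 22 were tested, and edgeR and DESeq2 called 0, with 0 higher and 2 lower unadjusted (median 0.065). Vim, of the intermediate filament vimentin, was at 2670, 2790 and 2970 CPM with IGF-1 and 2670 and 2560 CPM in co-culture (log2 0.10, adjusted p = 0.566). The N-cadherin gene Cdh2 was at 150, 153 and 157 CPM with IGF-1 and 151 and 162 CPM in co-culture (-0.03), and the matrix gene Sparc at 0.02. Foxc2, a forkhead factor gene, was called lower (-1.68) without IGF-1 replicate 5. Vim and Cdh2 transcripts were thus abundant, and those of Cdh1 close to none, with and without IGF-1.

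**Figure D4:**
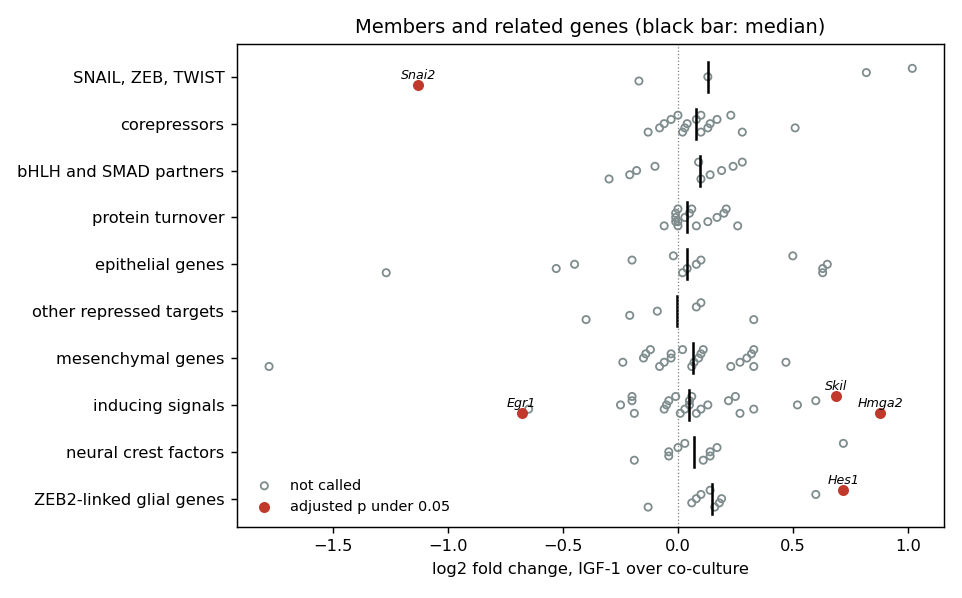
Log2 fold change of IGF-1 over co-culture for each tested member and related gene, by list (filled, edgeR adjusted p under 0.05; open, not called; black bar, median of the list). Snai2, Egr1, Hmga2, Skil and Hes1 were called, and the medians of the 9 related lists lie between -0.003 and 0.151.

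Most of the calls in the related lists were in the list of signals and factors known to induce these genes. That list also holds genes whose proteins restrain such signals, Skil among them. EdgeR called 2 of 26 higher and 1 lower, DESeq2 3 and 1, and the unadjusted counts were 7 and 2 (median 0.052). Over all genes tested, edgeR called 0.685% higher and 0.339% lower, and DESeq2 1.39% and 0.581%. Unadjusted, 7.1% of all genes tested were higher and 5.57% lower. The list was written with earlier results of these data known, so nothing is read from these counts. Hmga2, a chromatin protein gene of this list, was at 173, 157 and 223 CPM with IGF-1 and 101 and 99.0 CPM in co-culture. It rose by 0.88 on the log2 scale (SE 0.13, adjusted p = 0.0143). Skil, whose protein SnoN restrains SMAD signalling, was at 74.8, 66.1 and 83.7 CPM with IGF-1 and 42.6 and 50.4 CPM in co-culture and rose by 0.69 (SE 0.11, adjusted p = 0.0208). Egr1, an early growth response factor that can activate SNAI1 in human cells, was at 208, 229 and 184 CPM with IGF-1 and 328 and 338 CPM in co-culture and fell by 0.68 (SE 0.09, adjusted p = 0.0067). Without IGF-1 replicate 5, 6 genes of the list were called higher and 2 lower, where 5.49% and 3.65% of all genes tested were. Hmga2 was then at 0.72, Skil at 0.60 and Egr1 at -0.61. These 3 lost their call when either co-culture library was left out, and Hmga2 and Skil lost it also without IGF-1 replicate 3.

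Of 10 neural crest factors edgeR and DESeq2 called 0, with 1 higher and 0 lower unadjusted (median 0.072). Sox10 was at 836, 828 and 946 CPM with IGF-1 and 832 and 781 CPM in co-culture (log2 0.11, adjusted p = 0.589), and Sox6 was at 0.00. The factor gene Myc was called higher (0.16) without IGF-1 replicate 5. In the list of 10 genes linked to ZEB2 in oligodendrocytes, either tool called 1 higher and 0 lower, where 3 and 0 passed unadjusted (median 0.151). Hes1, a Notch target that restrains differentiation, was at 16, 19.3 and 19.5 CPM with IGF-1 and 12.1 and 10.1 CPM in co-culture and rose by 0.72 (SE 0.14, adjusted p = 0.0442). Its adjusted p was 0.0603 by limma-voom and 0.05 with total counts alone, and the call was lost without any library but IGF-1 replicate 5. Over the related lists together, edgeR called 3 of 124 tested genes higher and 1 lower with all libraries (0.685% and 0.339% of all genes tested). Without IGF-1 replicate 5 it called 12 and 7 of 121 (5.49% and 3.65% of all genes tested).

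Genes were also split by the E-box in the upstream window. The 2026 tested genes with at least 1 E-box in the 250 bases before a start had a median log2 change of 0.001, and 0.642% of them were called higher and 0.395% lower. For 9096 tested genes with a sequence and no E-box, the median was -0.007, with 0.781% higher and 0.341% lower. These are descriptions of this window only.

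The genes whose values over the 5 libraries lay nearest to those of Snai2 were Clec2d, Hbp1, Mmp23, Slitrk6 and Zfp455, by the root mean square difference of mean-centred log2 CPM (0.118, 0.131, 0.138, 0.138 and 0.144). Hbp1, a repressor of cell cycle genes, was at 16.5, 16.8 and 17.1 CPM with IGF-1 and 29 and 32 CPM in co-culture. Slitrk6, a gene of the SLITRK membrane protein family, was at 1.82, 2.01 and 2.45 CPM with IGF-1 and 4.67 and 5.61 CPM in co-culture. Among those nearest to Twist1 were Gm3362, Coq10b, Fhl3 and Aarsd1 (0.087, 0.107, 0.11 and 0.116). Coq10b, a coenzyme Q binding protein gene, was at 21.6, 20.1 and 21 CPM with IGF-1 and 12.8 and 11.3 CPM in co-culture. Each value shares its library with that of the member it was matched to, and likeness over 5 libraries says nothing of shared control.

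**Figure D5:**
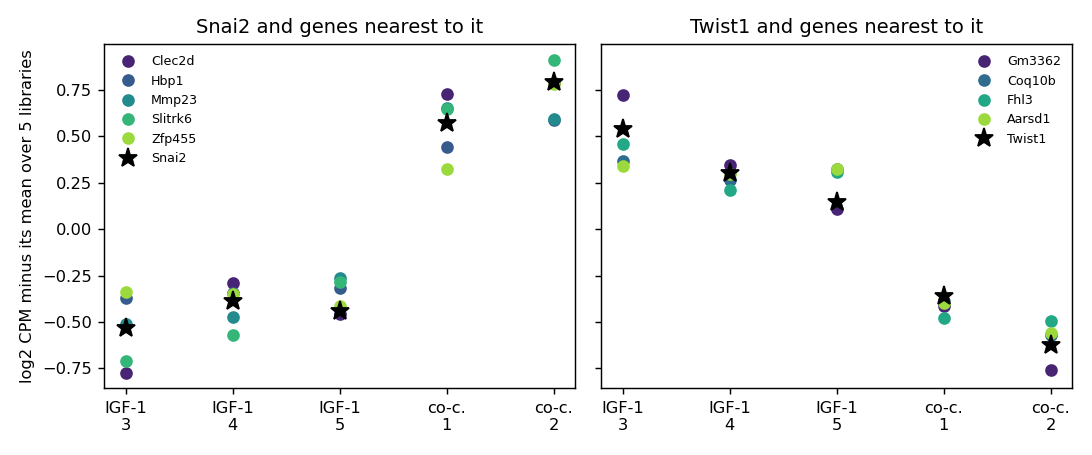
Log2 CPM minus its mean over the 5 libraries for Snai2 (left, stars) and Twist1 (right, stars) and genes nearest to each (circles). All 6 genes on the left lie lower in IGF-1 replicates 3, 4 and 5 than in co-culture replicates 1 and 2 (co-c.), and all 5 on the right lie higher.

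Snai2 and Twist1 are also expressed by fibroblasts, meningeal cells and mural cells, so markers of these cells are given beside the members. Of 7 fibroblast markers, 1 was higher in every IGF-1 library than in co-culture and 0 were lower (16.2% and 16.9% of all genes). Their sum was 534, 528 and 645 CPM with IGF-1 and 545 and 547 CPM in co-culture. Nearly all of that was Pdgfra, which the glioma expresses. Dcn, the decorin gene, was at 1.49, 2.38 and 2.30 CPM with IGF-1 and 2.19 and 2.30 CPM in co-culture, and Lum was at 0.11 to 0.424 and 0.118 to 0.173 CPM. Of 6 mural markers 0 were higher and 0 lower in every IGF-1 library, beside the same 16.2% and 16.9% of all genes. The mural sums were 2.97, 2.65 and 1.52 CPM with IGF-1 and 2.19 and 3.19 CPM in co-culture. The fibroblast and mural sums overlapped between the groups, but the fibroblast sum follows Pdgfra and says little of the other fibroblast markers. Of those, Col1a2 was the 1 that was higher, at 3.19, 4.71 and 2.69 CPM with IGF-1 and 2.54 CPM in each co-culture library. Col1a1 and Foxc1 overlapped between the groups. The part of such cells in the members' values was not tested.

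Neuronal markers were slightly higher in the IGF-1 libraries. EdgeR called 0 of them with all libraries and 1, Tubb3 (0.23), without IGF-1 replicate 5. Of 8 in the tables, 3 were higher in every IGF-1 library than in co-culture and 0 lower (16.2% and 16.9% of all genes), and they summed to 64.9, 66.3 and 72.6 CPM with IGF-1 and 56.6 and 56.2 CPM in co-culture. Most of this was Tubb3 (56.1 to 57.7 and 48.2 to 48.9 CPM). The 3 higher markers were Tubb3, Gad1 and Gad2. Gad1 was at 1.65, 1.8 and 1.57 CPM with IGF-1 and 1.56 and 0.649 CPM in co-culture. Gad2 was at 0.661, 0.635 and 0.734 CPM with IGF-1 and 0.635 and 0.531 CPM in co-culture. Rbfox3 had 0 reads in all IGF-1 libraries and 0 and 1 in co-culture, too few to compare. The part of the neuronal markers in the members' values was not tested. Microglial markers summed to 4.01 to 4.3 CPM with IGF-1 and 3.75 to 4.66 CPM in co-culture, endothelial markers to 5.63 to 9.21 and 6.81 to 9.03 CPM, and olfactory ensheathing markers, which include Sox10 of the glioma itself, to 1590 to 1870 and 1620 to 1670 CPM. In these 3 lists the groups overlapped.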

How the data were processed

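RNA-seq read counts of 5 libraries were used as deposited, 1 table of raw counts per gene symbol for each library. The submitters' processing notes name GRCm39 and list STAR 2.7.9a, cutadapt 3.4, DESeq2 1.28.1 and featureCounts 2.0.1; the tools' roles, the annotation and the use of strand are not given in the sources used here. Libraries held 16944315 to 20144181 counts, and replicates differed by more than sampling noise. The chi-square per degree of freedom was 2.29 for the co-culture pair and 2.33 for IGF-1 replicates 3 and 4. It was 13.4 and 13.5 for the pairs that include IGF-1 replicate 5.

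In R 4.3.3, edgeR 4.0.16 kept 15919 genes (filterByExpr, minimum count 10, minimum total 15), applied TMM factors and compared groups with the quasi-likelihood test, Benjamini-Hochberg adjusted over all genes (threshold 0.05). The SE is the log2 change divided by the square root of F. RLE factors, total counts, no filter, DESeq2 1.42.0, limma-voom (limma 3.58.1) and each library left out were alternatives. The fit was tested on simulated data.

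Lengths are merged exons of GENCODE M21 (GRCm38), found by gene symbol for 97.5% of tested genes; promoter sequences are RefSeq's. Members, lists and tests were chosen with earlier results of these data known. Genes named are all members, up to 4 called genes of each list or otherwise its 2 most abundant, 10 fixed genes, and the 5 nearest (prior count 2) to each member of at least 1 CPM that spans 0.5 on the log2 scale. Some genes that these rules name are not reported here. Lists of microRNA genes held 0 genes of the tables.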

Additional observations from a re-analysis of the deposited data

How the results depend on the processing

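The 5 tested members kept their direction under the alternatives that gave them a value (DESeq2 gave none for Snai1), and RLE factors changed no call of a member or list. Genes called over the whole table numbered 385 higher and 221 lower without the filter on low counts, 180 higher by DESeq2, and from 0 to 855 higher and from 2 to 569 lower when 1 library was left out. The extremes came without a co-culture library (edgeR called 0 higher, against 680 and 546 at an unadjusted p under 0.05) and without IGF-1 replicate 5. Related genes called were 8 higher and 3 lower without the filter, and from 0 to 12 higher and from 0 to 7 lower with 1 library left out. Snai2 ranged from -1.24 to -1.02 and was called only with all libraries or without IGF-1 replicate 5, and Zeb2 ranged from -0.18 to -0.14 and was called without IGF-1 replicate 5 only. Of the named genes, Cdh2 (-0.07 to 0.03), Ctbp1 (-0.09 to 0.03), Gsk3b (-0.04 to 0.03), Sox6 (-0.01 to 0.02) and Sparc (-0.02 to 0.06) changed sign when 1 library was left out; the cause was not tested. The 5 genes nearest to Snai2 shared 4 with those at a prior count of 0.5, and those nearest to Twist1 shared 5. With a co-culture library left out, the fit lends the other one the spread of the IGF-1 libraries. The length of the longest transcript was chosen after seeing the data. No paired analysis was possible because the groups share no replicate numbers. Depth limits Twist2 most, with 0 to 2 reads per library, and then Snai1 and Twist1, with 6 to 43.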

Other observations

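Some genes of the lists differed between the groups and were picked after their values were seen. Foxc2, Bmp4 and Ccn2 had few reads, while Jag1 had many. Ccn2, of the mesenchymal list, was higher, with 5, 6 and 11 reads with IGF-1 and 1 and 2 in co-culture, and was not tested. Foxc2, a forkhead factor of mesenchyme, had 12, 4 and 7 reads in IGF-1 replicates 3, 4 and 5 and 27 and 21 in co-culture replicates 1 and 2. Its log2 fold change was -1.78 (SE 0.47), and it did not pass the test (adjusted p = 0.138 by edgeR), although it did without the filter on low counts (0.0117) and without IGF-1 replicate 5 (0.0237). Bmp4, a bone morphogenetic protein ligand gene that induces Snai2 in the neural crest, had 1, 1 and 2 reads with IGF-1 and 11 and 9 in co-culture. It fell below the filter, and without it the adjusted p was 0.0629. Jag1, a Notch ligand gene, was at 106, 118 and 110 CPM with IGF-1 and 86.2 and 90.9 CPM in co-culture (log2 0.33, adjusted p = 0.0599 by edgeR and 0.0215 by DESeq2).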
